A study of Eohaustorius estuarius with 16 samples.

Results

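Among 16 arrays of whole-body RNA from the burrowing amphipod Eohaustorius estuarius, 5 arrays stood apart from 10 others by a set of transcripts at lower levels on them. The 5 were cyfluthrin replicates 2, 4 and 7 and control replicates 4 and 5. The 10 were cyfluthrin replicates 1, 3, 5, 6 and 8 and control replicates 1, 2, 6, 7 and 8. The division was selected on the measured probe levels themselves, with treatment as a covariate and with control replicate 3 left out because it resembles a repeat of cyfluthrin replicate 3. Every difference between the 5 arrays and the other 10 is therefore given as a description, with its error and no test. Tests are given for exposure, array position and array quality. The exposure fits use the same probe levels as the division. Treatment and 3 of the 6 quality measures entered its rule. The exposure fits and the tests of treatment and of those 3 measures are therefore not independent of it.

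The cyfluthrin amphipods spent 10 days in sediment carrying a nominal 1.6 µg/kg of the pyrethroid, and the control amphipods spent 10 days in sediment that had received solvent alone. RNA extracts of 8 exposed and 8 control amphipods were prepared in a single laboratory, labelled with Cy3 and hybridised here, 1 array per extract. The labels give no sex, size or moult stage, and they describe replicates by number only, so p-values measure the spread between these extracts. The array carries 8507 probes, 1 for each assembled contig. Contigs come here without gene names, so no probe is given a function.

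Eohaustorius estuarius lives in estuarine sand and is used to test sediments for toxicity. Cyfluthrin, like other pyrethroids, acts on voltage-gated sodium channels of nerve cells. A whole-body extract mixes the RNA of every tissue of the animal, and in crustaceans such profiles are known to differ with sex, age and moult stage. In such an extract, fewer cells of a type and less RNA per cell cannot be told apart.

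Levels are log2 processed intensities relative to the 75th percentile of the same array, so 0 marks that percentile and a step of 1 is a doubling. To be kept, a probe had to be marked well above background on 5 or more of the 15 arrays, and 7392 probes were. The 75th percentile of intensity lay between 202 and 310 on these arrays. Precision is limited by there being 15 arrays. Of the 15 arrays, cyfluthrin replicate 1 lay apart from the rest in its general profile. It scored 48.6 on the second component of the probes that differed less than 2-fold between the sets, where the other 14 arrays lay between -22.2 and 7.91. It also had the fewest probes well above background, 6675, though control replicate 5 was close at 6721, and other arrays had up to 7422. The counts of probes that differ between the sets, and of probes that passed for exposure, are also given without it.

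In the fit of all 15 arrays the difference ran almost entirely in 1 direction. With treatment in the model, 208 of the 7392 probes (2.81%) were at least 2-fold lower on the 5 arrays and 15 (0.203%) were at least 2-fold higher. At 8-fold or more these counts were 70 lower and 0 higher, at 32-fold 23 and 0, and at 128-fold 3 and 0. Of the 208 lower probes, 21 were not well above background on any of the 5 arrays, so their levels there are upper limits. As a limit for these 21, each array's lowest level marked well above background was taken, or the probe's own level where that was higher. With the 21 at this limit, the lower counts were 205 at 2-fold, 66 at 8-fold, 22 at 32-fold and 3 at 128-fold. A higher limit would give smaller differences. The remaining probes hardly differed, since the median over all kept probes was 0.08 and the quartiles were -0.02 and 0.18 on the log2 scale. Without cyfluthrin replicate 1 the counts at 2-fold were 198 lower and 11 higher. With 50 added to each processed intensity they were 114 lower and 3 higher, and with a normexp background correction of the median intensities (offset 50) they were 104 and 2. With the replicate number as a block they were 200 and 31. Without the background filter they were 213 and 21, of 8507 probes.

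**Figure D1:**
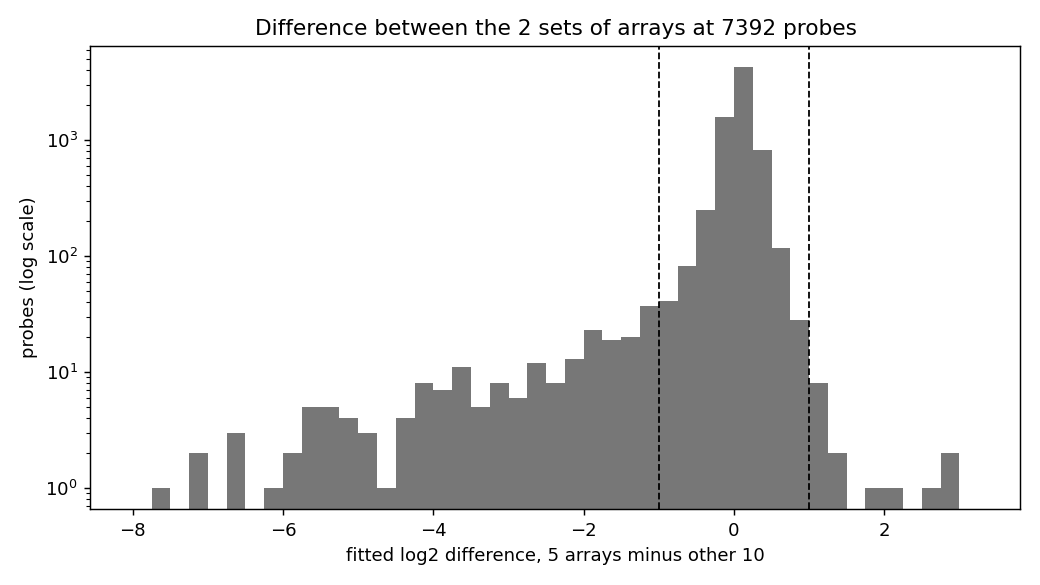
Fitted log2 difference between the 5 arrays and the other 10 (horizontal axis) at 7392 probes, with the number of probes on a log scale (vertical axis) and dashed lines at 2-fold. The bulk lies near 0.08, 208 probes trail to the left as far as -7.66, and 15 probes lie beyond the right line, up to 2.92.

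At 84 probes (1.14%) all 5 arrays lay below all of the other 10, and at 5 probes (0.0676%) all 5 lay above. Without cyfluthrin replicate 1 these counts were 84 and 9. Of the 84, 81 were also at least 2-fold lower by the fit. These 81 probes, on 81 different contigs, form the core of the division. Their differences ran from -1.11 to -7.66 with a median of -3.57, a fold of 11.9, where the median of all kept probes was 0.08. On the 10 arrays 77 of the 81 were well above background throughout. On the 5 arrays 45 were well above background throughout, 29 on some arrays and 7 on none. For those 7 the levels on the 5 arrays are upper limits. At the limit given above, these 7 probes were 2.49-fold to 21.4-fold lower. The 29 were left at their measured levels. With the 7 at that limit the median of the 81 was -3.55. Under the alternatives for weak signals the median of the 81 was -1.81 (3.52-fold) with 50 added and -1.62 (3.06-fold) with normexp.

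The mean level of the 81 probes was -2.37, -3.37 and -3.48 on cyfluthrin replicates 2, 4 and 7, and -3.41 and -3.67 on control replicates 4 and 5. On the other 10 arrays it was 1.72, -0.49, -0.27, 0.23 and -0.26 on cyfluthrin replicates 1, 3, 5, 6 and 8, and 0.60, 0.42, 1.43, 0.47 and 0.21 on control replicates 1, 2, 6, 7 and 8. The sets averaged -3.26 ± 0.51 (SD, n = 5) and 0.41 ± 0.71 (SD, n = 10) and did not overlap, a property that follows from how the 81 probes were taken. The arrays nearest to each other across the divide were cyfluthrin replicate 2 among the 5 and cyfluthrin replicate 3 among the 10.

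**Figure D2:**
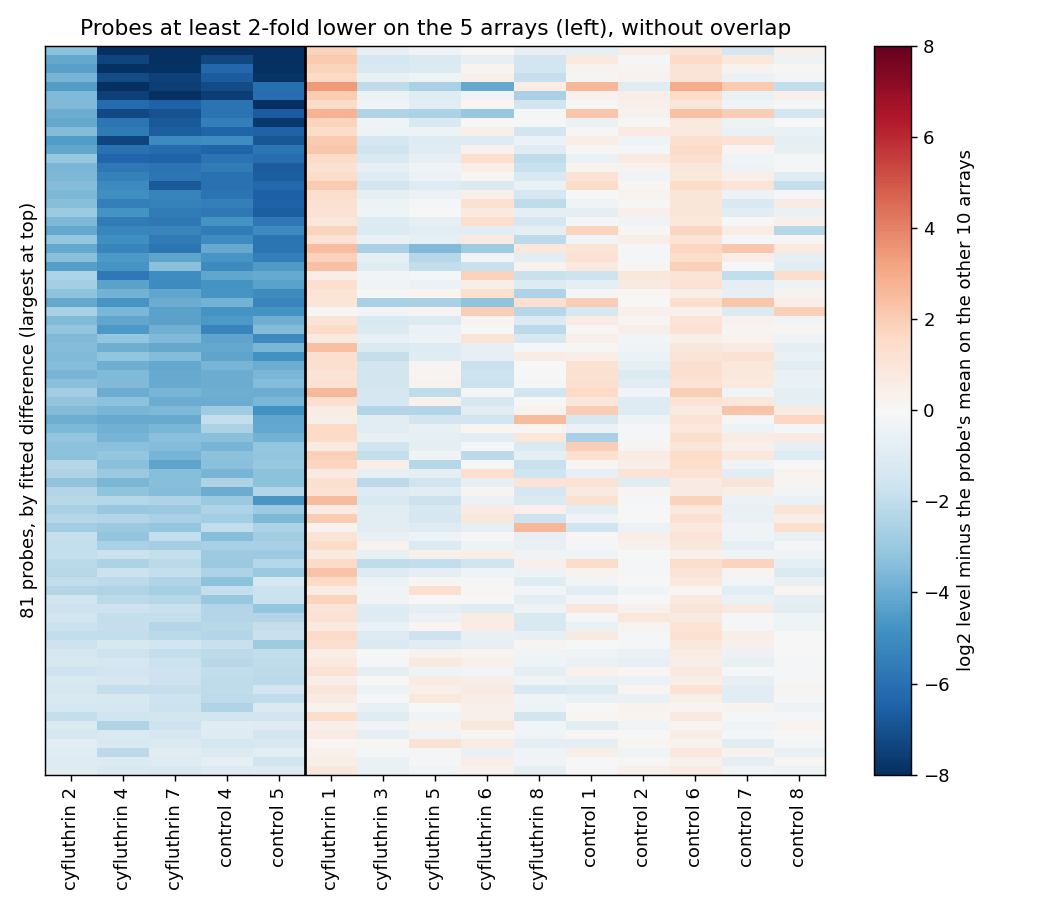
Log2 level of each of the 81 probes (rows, largest fitted difference at the top) on the 15 arrays (columns, the 5 arrays left of the line), relative to the probe's mean on the other 10 arrays. The 5 columns on the left are blue at every probe, and cyfluthrin replicate 2 is the palest of them in the upper rows.

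These transcripts also carried a measurable part of the total signal. The 81 probes gave 0.433%, 0.283% and 0.267% of the summed processed intensity on cyfluthrin replicates 2, 4 and 7, and 0.243% and 0.199% on control replicates 4 and 5. On the other 10 arrays their share ran from 1.73% on cyfluthrin replicate 8 to 9.15% on cyfluthrin replicate 1, with a median of 3.35%. The highest share among the 5 was thus below the lowest among the 10, which largely follows from how the 81 probes were taken. Shares of intensity are not shares of RNA, because probes differ in how strongly they bind.

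The kept probe with the largest fall among those well above background on all 15 arrays was CUST_6378_PI425439380, on contig 130, measured by 2 spots. Its log2 level was 1.31, -1.93 and -2.74 on cyfluthrin replicates 2, 4 and 7, and -1.86 and -3.35 on control replicates 4 and 5. On the other arrays it was 7.50, 4.03, 4.25, 4.76 and 3.98 for cyfluthrin replicates 1, 3, 5, 6 and 8, and 6.20, 5.27, 6.95, 6.26 and 5.0 for control replicates 1, 2, 6, 7 and 8. The 2 ranges were separated by a gap of 2.67, and cyfluthrin replicate 2 was the array on the lower side of that gap. The fitted difference was -7.11 ± 0.82 (SE, 15 arrays), a 138-fold lower level. It was -6.20, or 73.4-fold, with 50 added and -5.73, or 53.1-fold, with normexp. Its 2 spots differed on the same array by an SD of 0.089, far below the spread between arrays of 1.80 (SD, n = 5) and 1.25 (SD, n = 10).

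Probe CUST_89_PI425439771, on contig 3092 with a single spot, followed closely. It stood at 0.80, -3.54 and -2.80 on cyfluthrin replicates 2, 4 and 7 and at -1.15 and -3.36 on control replicates 4 and 5. The other arrays held 6.92, 3.92, 4.03, 5.36 and 3.59 for cyfluthrin replicates 1, 3, 5, 6 and 8, and 5.42, 5.36, 6.15, 5.40 and 5.20 for control replicates 1, 2, 6, 7 and 8. The order of the arrays at both probes was much the same, with cyfluthrin replicate 2 highest of the 5 and cyfluthrin replicate 8 lowest of the 10. The fitted difference was -7.11 ± 0.75 (SE, 15 arrays), 138-fold lower, with a gap of 2.79 between the sets. With 50 added it was -6.04, or 65.7-fold, and with normexp -5.57, or 47.6-fold.

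The 5 probes without overlap that were higher on the 5 arrays differed far less, by 0.29 to 0.66. Among those well above background on all 15 arrays, CUST_4099_PI425439380, on contig 1375, had the largest rise. It measured -2.91, -2.96 and -2.74 on cyfluthrin replicates 2, 4 and 7 and -2.90 and -2.69 on control replicates 4 and 5. The other arrays averaged -3.30 ± 0.31 (SD, n = 10), the highest being cyfluthrin replicate 5 at -3.03 and the lowest cyfluthrin replicate 1 at -4.13. Its fitted difference of 0.47 ± 0.15 (SE, 15 arrays) is a 1.38-fold higher level, and a gap of only 0.066 separated the sets. Its 2 spots differed on the same array by an SD of 0.14, more than that gap. With 50 added the fitted difference was 0.20, or 1.15-fold, and with normexp 0.15, or 1.11-fold.

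Probe CUST_560_PI425439380, on contig 6635, was next, at -2.39, -1.74 and -2.34 on cyfluthrin replicates 2, 4 and 7 and -2.43 and -2.49 on control replicates 4 and 5. The other arrays averaged -2.71 ± 0.18 (SD, n = 10) and reached up to -2.51 on control replicate 2. The fitted difference was 0.41 ± 0.12 (SE, 15 arrays), 1.33-fold higher, with a gap of 0.022. It was 0.22, or 1.16-fold, with 50 added, 0.15, or 1.11-fold, with normexp, and 0.11 with the replicate block. Both gaps are below the spread within either set, so these probes lie at the edge of overlapping. With 50 added, 0 probes were higher without overlap, and with normexp 6 were.

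**Figure D3:**
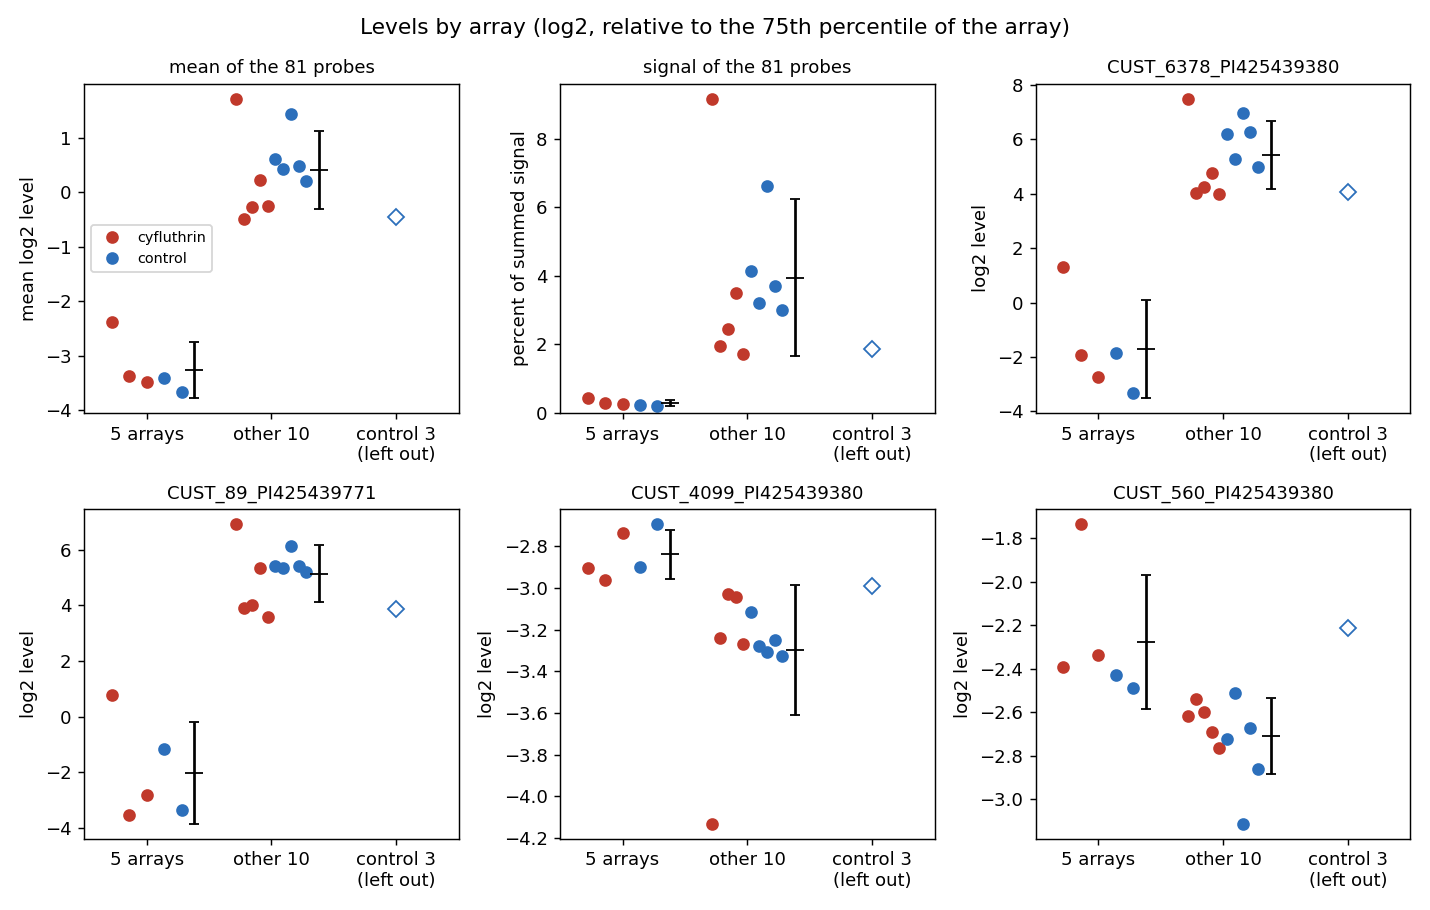
Mean log2 level and percent of summed intensity of the 81 probes, and log2 levels of the 4 named probes (vertical axes), by array; points are arrays coloured by treatment, black bars give mean and SD of the 5 arrays (left) and the other 10 (middle), and the open diamond is control replicate 3. The 5 arrays lie between -3.67 and -2.37 in the first panel and the other 10 between -0.49 and 1.72.

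Control replicate 3 was the only array that the division did not use, and it fell with the 10. Its mean over the 81 probes was -0.46, and it lay above all 5 arrays at 81 of the 81. It stood at 4.08 for CUST_6378_PI425439380 and at 3.87 for CUST_89_PI425439771. Its median absolute difference from cyfluthrin replicate 3 over the 81 probes was 0.11, while the next nearest array differed by 0.44 and the closest pair among the 10 by 0.32. Since it tracks cyfluthrin replicate 3 so closely, it was not counted as a further animal.

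Within each set the 81 probes still tended to move together. Across the 10 arrays the median Pearson correlation between pairs of the 81 probes was 0.56, and across the 5 arrays it was 0.40. Over all pairs of kept probes these medians were 0.03 and 0.01. All such pairs share the same arrays, and these correlations are across few arrays, so they describe and do not test. Cyfluthrin replicate 2 was the highest of the 5 arrays at 54 of the 81 probes, and cyfluthrin replicate 1 the highest of the 10 at 52. The correlations were not taken without either array, so the part of these arrays in them was not tested. Cyfluthrin replicate 8 was the lowest of the 10 at 28, and cyfluthrin replicate 3 at 17. The SD was larger among the 10 than among the 5 at 57 of the 81 probes, with medians of 0.61 for the 5 arrays and 0.98 for the 10, where all kept probes had 0.29 and 0.30.

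The other 127 probes that were at least 2-fold lower showed a looser pattern. At 126 of them the sets overlapped. The other, CUST_1890_PI425439775, was listed here because it lacked a value on 1 array. Its 14 values did not overlap, with a gap of 2.15, and its difference of -5.46 was the largest of the list. Over all 127 the median difference was -1.68, a fold of 3.20, ranging from -1.01 to -5.46. Background was clearly exceeded on all 10 arrays by 73 of the 127 and on all 5 by 58. Another 14 did not clearly exceed it on any of the 5, and 11 of these were at least 2-fold lower at the limit given above. Their mean level was -3.47, -3.93 and -3.85 on cyfluthrin replicates 2, 4 and 7 and -2.91 and -3.46 on control replicates 4 and 5. On the other arrays it ran from -2.79 on cyfluthrin replicate 3 to -0.31 on control replicate 8, with a median of -1.63.

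Here the 10 arrays formed a gradient and not a group. Probes with all values entered this list only where the sets overlapped, so part of this is built in. On the first component of these probes (52.6% of their variance, 126 probes) control replicate 8 scored 27.3, cyfluthrin replicate 8 27.2, control replicate 6 22.0 and cyfluthrin replicate 1 14.8. Cyfluthrin replicates 3 and 5 scored -13.3 and -11.3, within the range of the 5 arrays, which ran from -18.8 on cyfluthrin replicate 4 to -1.69 on control replicate 4. The median correlation between pairs of these probes was 0.16 across the 10 arrays and 0.04 across the 5. The array that was highest of the 10 most often was cyfluthrin replicate 8, at 33 of 126 probes, where it had been the lowest most often at the 81. The 2 lists thus ordered the arrays differently.

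The 15 probes that were at least 2-fold higher on the 5 arrays had a median difference of 1.17 and overlapped between the sets at all 15. With 50 added 3 probes in all were at least 2-fold higher, and with normexp 2. On all 5 arrays 14 of them stood well above background, and on all 10 arrays 5 did. The SD among the 10 exceeded that among the 5 at 14 of the 15. Their mean level was -1.16, -0.26 and -0.74 on cyfluthrin replicates 2, 4 and 7 and -0.80 and 0.19 on control replicates 4 and 5. On the other 10 arrays it spread from -4.39 on cyfluthrin replicate 1 to -0.52 on control replicate 1, with a median of -1.53. Control replicate 1 and cyfluthrin replicate 5, at -0.52 and -0.79, lay within the range of the 5 arrays.

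The difference was present in both treatments when each was taken alone. Among exposed amphipods, 3 arrays against 5, the median difference at the 81 probes was -3.04, and 81 of them were at least 2-fold lower. Among controls, 2 arrays against 5, it was -4.03, with 80 at least 2-fold lower. Over all kept probes, 222 were at least 2-fold lower and 84 higher among exposed amphipods, and 229 and 31 among controls. The higher counts were thus larger than the 15 of the fit over both treatments. Probe CUST_6378_PI425439380 differed by -6.02 among exposed amphipods and by -8.54 among controls, and CUST_89_PI425439771 by -6.61 and -7.76. At the 127 probes the medians were -1.65 among exposed amphipods and -1.74 among controls, with 127 and 122 of them below 0. As the division was chosen over both treatments, the presence in each is part of the description.

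Both slides held arrays of both sets. Slide numbers come from the headers of the files. On slide 1, with 3 of the 5 and 5 of the 10, the median at the 81 probes was -4.23, and on slide 2, with 2 and 5, it was -2.90. The named probes CUST_6378_PI425439380 and CUST_89_PI425439771 differed by -8.51 and -8.34 within slide 1 and by -5.53 and -5.70 within slide 2, which holds cyfluthrin replicate 2. Of the 81 probes, 81 on slide 1 and 79 on slide 2 were at least 2-fold lower. Over all kept probes, 222 were at least 2-fold lower and 77 higher on slide 1, and 228 and 23 on slide 2.

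Array position is not a probe level, so its relation to the division could be tested. Treatment was a covariate in the rule behind the division. Its test is therefore not independent of that rule, and nothing is read from it. Of the 5 arrays 3 were exposed and 2 controls, and of the 10 arrays 5 were exposed and 5 controls (two-sided Fisher's exact test, p = 1). Slide gave p = 1 and column on the slide p = 0.608 by the same exact test. The rows were less even, with 3 of 4 arrays of row 1 among the 5, 1 of 4 of row 2, 1 of 3 of row 3 and 0 of 4 of row 4. An exact permutation test over the 3003 choices of 5 arrays gave p = 0.189 for row, two-sided, and 0.755 after Benjamini-Hochberg adjustment over the 4 variables. The array of row 1 outside the 5 was control replicate 1, with a mean level of 0.60 over the 81 probes. With numbers this small, these tests could miss a sizeable imbalance. With row as a block in the fit, 189 probes were at least 2-fold lower and 54 higher, and the median at the 81 probes was -3.96.

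Array quality was compared through 6 measures, none of them the level of an amphipod probe. The 75th percentile of intensity was 249 ± 37.4 on the 5 arrays and 265 ± 33.8 on the 10, and the local background 21.7 ± 1.92 and 22.4 ± 2.60 (SD). The mean log2 intensity of the spiked-in E1A control probes was 7.07 ± 0.13 and 7.08 ± 0.24. The median SD between duplicate spots was 0.070 ± 0.0057 and 0.071 ± 0.0066, the share of outlier spots 0.120% ± 0.048 and 0.127% ± 0.071, and 7117 ± 236 and 7161 ± 245 probes were well above background. No difference passed a two-sided exact permutation test (lowest p = 0.412 for the 75th percentile, n = 5 and 10), and the adjusted p over the 6 measures was 0.98 for each. The ranges of the sets overlapped for every one of the 6. The 75th percentile, the outlier marks and the marks for background entered the rule behind the division, so those 3 measures are not separate from it.

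The exposure contrast was then fitted with the division as a term. At an adjusted p under 0.05 (limma, Benjamini-Hochberg over 7392 probes) 1061 probes, or 14.4%, passed, 453 higher and 608 lower in exposed amphipods. Without the term 1071 passed, 488 higher and 583 lower, and 1002 probes passed in both fits. Without cyfluthrin replicate 1 the counts were 1187 with the term and 1264 without it. With the term, 632 passed with the replicate block, 628 with the row block and 596 with control replicate 3 included. The term lowered the median residual SD of the 208 lower probes to 1.09, against 1.83 without it. As the division came from the same levels, that drop is built in.

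Few of the probes that separated the sets passed for exposure. Of the 223 probes at least 2-fold apart, 6 passed (2.69%), against the 14.4% of all kept probes. By list, 1 of 81 passed, higher in exposed amphipods, 4 of 127 passed, all lower, and 1 of 15, lower. The 208 lower probes among them had the residual SD of 1.09 given above, and its part in the low count was not tested. The fitted exposure differences of the 6 ran from -2.66 to 0.67, with adjusted p from 0.000306 to 0.0466 (limma). The count rested on single arrays, as it was 15 without cyfluthrin replicate 1, 10 without cyfluthrin replicate 8 and 0 without cyfluthrin replicate 4. It was also 0 with the row block, 3 with control replicate 3 included and 11 with the replicate block. CUST_6378_PI425439380 differed by -0.22 ± 0.78 and CUST_89_PI425439771 by -0.37 ± 0.71 between exposed and control amphipods (SE, limma adjusted p = 0.888 and 0.765). At both probes a 2-fold change would lie within 2 SE of 0.

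**Figure D4:**
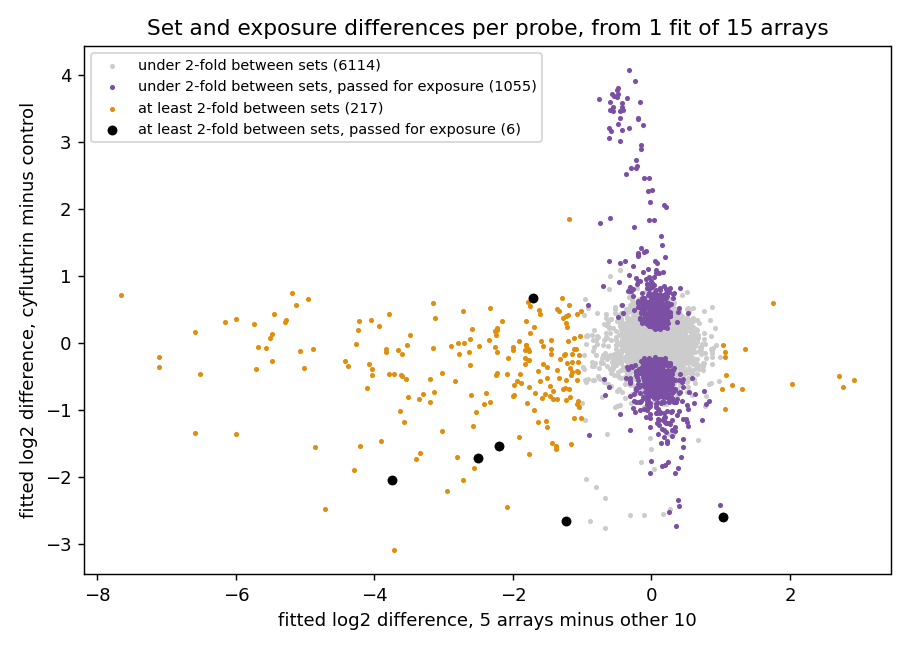
Fitted log2 difference of the 5 arrays from the other 10 (horizontal axis) against that of cyfluthrin from control (vertical axis) at 7392 probes in 1 fit of 15 arrays; colours mark 2-fold between the sets and an adjusted p under 0.05 for exposure. Of the 1061 probes that passed for exposure, 6 were among the 223 that are at least 2-fold apart between the sets.

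Among the 10 arrays alone, the exposed amphipods had a mean level over the 81 probes of 0.19 ± 0.89 and the controls 0.63 ± 0.47 (SD, n = 5 each), and the ranges overlapped. The median difference of exposed from control arrays was -0.38 at the 81 probes and -0.44 at the 127. In the fit of 15 arrays, exposed amphipods were lower at 51 of the 81 probes, 100 of the 127 and 3598 of 7392. Both lists were taken from the same levels, so nothing is read from these counts. No test is given for the mean levels over the 81 probes, since the probes were taken for their levels on the same arrays. Cyfluthrin replicate 1 was the highest of all 10 arrays, cyfluthrin replicates 3, 5 and 8 lay below every control, and cyfluthrin replicate 6, at 0.23, lay just above the lowest control, replicate 8, at 0.21.

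An interaction term asked whether the exposure difference was unequal in the 2 sets. Because the sets were chosen from the same levels, its p-values are no independent test and nothing is read from them. It passed at 0 of 7392 probes (0%; limma, Benjamini-Hochberg), with 731 at an unadjusted p under 0.05 and a lowest adjusted p of 0.118. Among the 223 probes 0 passed. The term compares 3 exposed and 2 control arrays with 5 and 5, so differences have to be large to be seen. It passed at 2 probes without control replicate 4.

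Correlations of whole profiles were high both within and between the sets. Over all 7376 probes with a value on each array, the median correlation between arrays was 0.962 within the 5, 0.953 within the 10 and 0.939 between the sets. Without the 223 probes these medians were 0.967, 0.968 and 0.971, so pairs across the sets were as alike as pairs within them, which the removal of the most different probes favours. The pair most alike across the sets was cyfluthrin replicates 2 and 3 in both cases, at 0.977 and 0.986. Each correlation runs over probes, and probes are no independent replicates. Levels were not centred per probe, so probes that are strong or weak on every array raise all of these correlations.

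The first principal component of all probes held 30.5% of the variance and placed the 5 arrays at one end, from -41.5 to -15.6, and the 10 from -11.8 to 37.8. The gap between control replicate 4 and cyfluthrin replicate 5 was smaller than the largest gap within either set, so whole profiles formed a gradient. Average linkage of the same profiles placed the 5 arrays in 1 branch together with cyfluthrin replicates 3, 5 and 6. Without the 223 probes the first component held 27.2% and divided the treatments, with exposed arrays from 4.75 to 26.6 and controls from -24.7 to -14.7. The 5 arrays lay on both sides of it, at 15.5, 19.8 and 17.7 for the exposed and -23.4 and -20.7 for the controls. The removal of the probes that differ most between the sets favours that placement. Average linkage without the 223 probes placed cyfluthrin replicate 1 alone and the other 14 arrays in 1 branch.

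**Figure D5:**
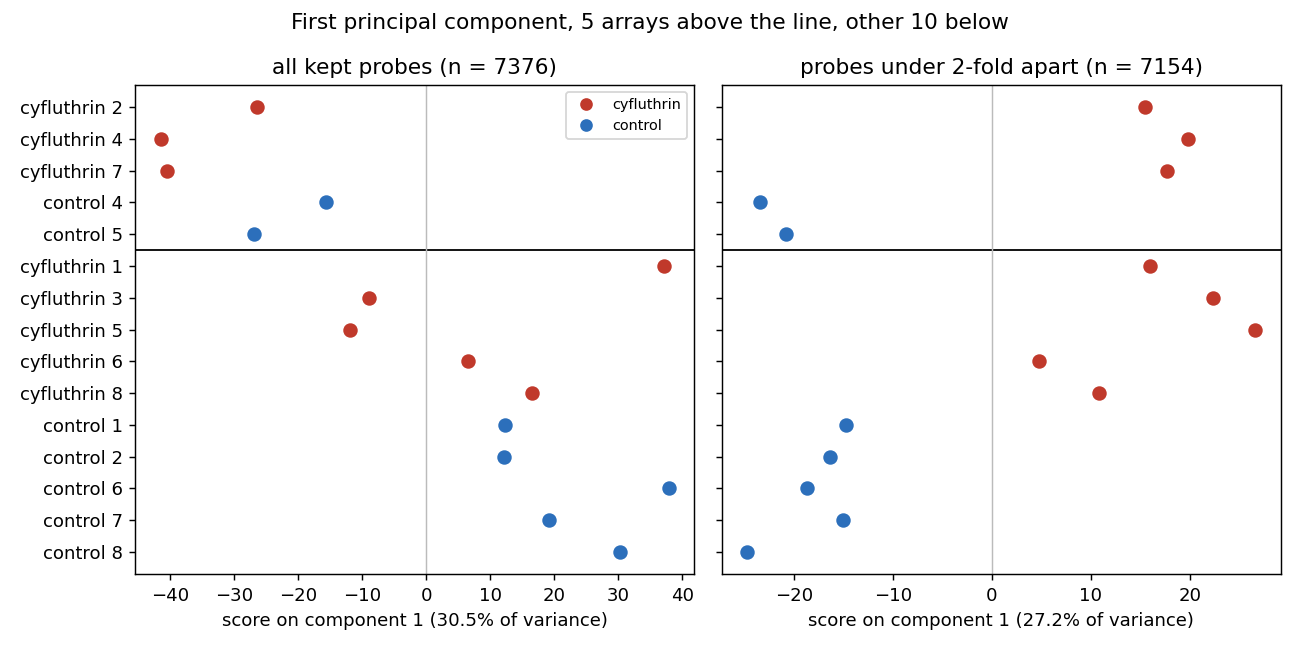
Scores of the 15 arrays on the first principal component (horizontal axes) over 7376 probes and over 7154 probes left without the 223 that differ 2-fold between the sets; the 5 arrays are above the line, and colours give the treatment. On the left the 5 arrays reach from -41.5 to -15.6, below the other 10, and on the right exposed arrays, from 4.75 to 26.6, lie above all controls.

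The working name of the division spoke of 2 natural states of the animals. The sets lay at 2 separated levels at 81 probes, a property that follows from how those probes were taken. The median gap between the sets at these probes was 0.87, and the largest was 3.05. The median SD was 0.61 within the smaller set and 0.98, above the median gap, within the larger. Cyfluthrin replicate 2 lay nearer to the divide than the other 4 arrays of its set. The data also show a gradient at 127 more probes, and whole profiles that do not split in the same way. The labels record nothing that would show whether the division existed before the exposure began.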

How the data were processed

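The deposited files hold the processed intensity of each spot; per the file headers it was made with version 11.5.1.1 of Agilent's Feature Extraction, while the submitters' processing notes name version 9.1. The authors' own log2 table, whose scale the sources used here leave undescribed, matched quantile-normalised log2 intensities centred on each probe's median over 16 arrays (r 0.995 to 0.999 per array; column medians -0.035 to 0.043) and served as an alternative. The log2 processed intensity minus the array's 75th percentile over 15208 spots was averaged per probe without spots marked as outliers (284 on the 15 arrays); no spot was saturated. A probe counted as well above background where at least 50% of its spots were so marked. Of the 7392 kept probes, 16 lacked a value on at least 1 array and were fitted without it. limma 3.58.1 in R 4.3.3 was used on 15 arrays with set and treatment as terms, two-sided, with Benjamini-Hochberg adjustment over all kept probes, and was tested on simulated data; figures use matplotlib 3.10.9. Where files name no gene, 2 probes in each direction are named: the largest fitted differences among those well above background on all 15 arrays and without overlap, 52 probes in all. The members, lists and rules were chosen with earlier results of these data known. Alternatives were other normalisations, background corrections, filters, blocks, thresholds, the authors' table and leaving out each array. Normexp used median pixel intensity in place of the mean. Signal over background limits the 36 kept probes that were not well above background on any of the 5 arrays. No sequence or gene name of any probe was used here.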

Additional observations from a re-analysis of the deposited data

Results flagged for a closer look

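Single arrays were screened for a gap to the nearest other array of the same set that exceeds Dixon's 95% value, over 36 sets of values, of which 8 held such an array; chance gives about 5% of independent sets, and these sets overlap. Cyfluthrin replicate 2 had a mean over the 81 probes of -2.37, with the nearest of the 5 arrays at -3.37. Cyfluthrin replicate 1 scored 48.6 on the second component of the probes under 2-fold apart, with the nearest of the 10 at 4.75, and it stood at -4.13 for CUST_4099_PI425439380, with the nearest at -3.33. Control replicate 4 scored -1.69 on the first component of the 126 overlapping lower probes with a value on every array, with the nearest of the 5 at -16.0. Cyfluthrin replicate 4 had a spike-in level of 6.83 (nearest 7.10) and a level of -1.74 for CUST_560_PI425439380 (nearest -2.34). Cyfluthrin replicate 5 had a duplicate-spot SD of 0.0866 (nearest 0.0746), and control replicate 2 had 0.302% outlier spots (nearest 0.178%).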

How the results depend on the processing

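Of 31 alternatives for the 223 probes at least 2-fold apart, 28 stayed within 1.5 times, from 202 to 239 when each array was left out. The count was 117 with 50 added to the processed signal, 106 with normexp and 113 at 4-fold. Adding 50 compresses weak signals; under it and under normexp 81 of the 81 core probes stayed lower, 64 and 60 of them at least 2-fold. The 89 probes without overlap ranged from 71 to 121 over 24 settings. The 1061 probes called for exposure became 596 with control replicate 3 included, 632 with the replicate block and 628 with the row block, and 789 to 1187 when each array was left out. Without the set in the model the 1071 became 612 with control replicate 3 and 694 with the replicate block. The cause was not tested. The 6 probes called for exposure among those 2-fold apart became 3 with control replicate 3, 11 with the replicate block, 0 with the row block and 0 to 15 when each array was left out. The interaction gave 2 probes with normexp and 0 to 2 when each array was left out. Exposed and control arrays of the same number correlated above 0.1 in 4 of 7 cases (-0.15 to 0.55). For 4 of 14 arrays the best partner had the same number. Arrays of the same number also shared a slide in every case. The main fit did not pair arrays by number, and these values cannot settle whether they belong in pairs. No sign of a named probe turned in any alternative. For the array measures the lowest adjusted p over 18 alternatives was 0.429 (exact permutation).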
